A study of Homo sapiens with 48 samples.

Results

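NF-Y is a transcription factor built from 3 different subunits encoded by NFYA, NFYB and NFYC, and the transcripts of these 3 genes are described here in HEK293T cells. The 3 genes were found by their Ensembl identifiers (ENSG00000001167, ENSG00000120837 and ENSG00000066136) among the 14685 genes of the count tables, and all 3 were present in each of the 48 libraries. They were chosen by measured values of these same libraries, with the T-REX contrasts at 3 h known and NFYA lower there. Their differences between arms are therefore given as a description, with standard errors and without p-values.

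HEK293T, a human embryonic kidney line of labelled genotype WT, had been transfected with a plasmid that expresses NCBP1, the larger protein of the complex that binds the 5′ cap of nuclear RNA, fused to the self-labelling protein Halo, and every arm carried this transfection. In T-REX, a photocaged form of the lipid-derived electrophile 4-hydroxynonenal (HNE), named Ht-PreHNE, binds Halo and is released next to the fused protein by light. The controls were named light alone, probe alone (Ht-PreHNE without light) and DMSO (vehicle without light), and the study's methods, as written, also list Ht-PreHNE for the light-alone control. RNA was taken 3, 6 and 12 h after the reaction, with 4 libraries for each arm and time, and transcripts from the plasmid and from the endogenous NCBP1 gene are not separated in the counts.

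NF-Y binds the CCAAT box of promoters as a trimer. NFYB and NFYC pair through histone-fold domains like those of the core histones, and NFYA then joins the pair and supplies the contacts that read the CCAAT bases. NF-Y is known for its role at promoters of genes of the G2/M cell cycle, DNA synthesis, the endoplasmic reticulum (ER) stress response and sterol synthesis, where it acts beside factors such as ATF6, SREBP and Sp1. NFYA is commonly regarded as the limiting subunit.

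Library totals ranged from 23952455 to 37099535 counts. Levels are given as CPM, counts scaled to library size with TMM factors, and "called" means an adjusted p of at most 0.05 in the quasi-likelihood test of edgeR, adjusted over all 14685 genes by the Benjamini-Hochberg method. Of the markers listed for HEK293T, NEFL, NEFM, INA and LHX1 were in the tables, with median levels of 58.0, 31.0, 65.3 and 2.15 CPM, and PAX2 was not. None of the 4 blood cell markers (0 of 4) and 1 of 5 fibroblast and endothelial markers (COL1A1, 2.13 to 6.07 CPM) was among the genes of the tables. At 12 h INA and NEFL were called lower against DMSO (log2 fold changes of -0.31 and -0.33) and were not called against light alone or probe alone. NEFM (0.14) and LHX1 (-0.14) were not called against DMSO at 12 h. The part of these differences in the results below was not tested.

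To compare the subunits with each other, CPM was divided by the length of the union of annotated exons in GENCODE 29, which came to 3811 bases for NFYA, 4956 for NFYB and 5990 for NFYC. On this per-length scale NFYA was the most abundant transcript, with a median of 17.0 CPM per kilobase over the 48 libraries (range 14.8 to 20.0). NFYC followed with a median of 10.4 CPM per kilobase (8.69 to 11.4), and NFYB was lowest with 5.47 (4.88 to 6.75). The 3 ranges did not overlap. The raw counts behind these values were 1423 to 2448 for NFYA, 656 to 1082 for NFYB and 1371 to 2422 for NFYC. The counts of NFYA and NFYC overlapped, so the order of these 2 rests on the lengths used. The counts do not separate the annotated transcripts, of which there are 2 for NFYA, 5 for NFYB and 24 for NFYC.

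Promoter windows from 250 bases before to 50 bases after annotated starts (RefSeq, GRCh38.p14) were searched for CCAAT and its reverse complement ATTGG. The windows are shown because NF-Y genes may carry the box that their own product binds. NFYA and NFYC each had a window in the table, and NFYB had none and was not searched. The 120 bases before the first listed start of each are given 5′ to 3′ on the gene's strand, with a CCAAT or ATTGG in capitals.
NFYA, chr6:41072854-41072973, plus strand: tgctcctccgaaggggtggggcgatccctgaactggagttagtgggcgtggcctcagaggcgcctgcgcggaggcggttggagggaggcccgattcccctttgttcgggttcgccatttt
NFYC, chr1:40691584-40691703, plus strand: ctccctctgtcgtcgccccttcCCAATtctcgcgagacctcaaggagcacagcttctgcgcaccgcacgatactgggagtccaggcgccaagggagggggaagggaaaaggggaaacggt
The NFYA stretch held no match, and its window held 1, on the opposite strand after the start. The first NFYC window held 1 match, beginning 98 bases before the start, and the other two NFYC windows also held matches. Over all 35116 windows of the table, 34.6% held the motif on either strand.

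NFYA, the subunit that reads the CCAAT box, was lower under T-REX than in every control library at 3 h. The 4 T-REX libraries held 58.1, 57.2, 57.7 and 56.5 CPM. Light alone gave 64.2, 64.6, 69.2 and 67.5 CPM, probe alone 72.6, 76.0, 72.7 and 70.5 CPM, and DMSO 74.3, 70.8, 67.2 and 73.8 CPM. The T-REX libraries were the 4 lowest of the 16 and lay close together (57.4 ± 0.704 CPM, mean ± SD, n = 4), whereas the light-alone mean (66.4 ± 2.39) lay below those of probe alone (73.0 ± 2.31) and DMSO (71.5 ± 3.30). How many of all genes separate in this way is not given here. NFYA was chosen with these values known, so nothing is read from this separation, nor from those of other genes and times below.

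As log2 fold changes, NFYA at 3 h stood at -0.21 for light alone (SE 0.050), -0.33 for probe alone (SE 0.050) and -0.31 for DMSO (SE 0.050), which are changes of -13.6%, -20.5% and -19.6%. NFYA was the 1 of the 3 subunits called against probe alone and against DMSO, where 1.05% and 5.99% of all genes were called, and 0 of the 3 were called against light alone, where 0.197% of all genes were. These counts follow from how the genes were chosen, and nothing is read from them. The median log2 fold change of all genes at 3 h was 0.00063, 0.024 and 0.031 in the same order. The call of NFYA against light alone was made by DESeq2 and with 2 of the deposited RUV (removal of unwanted variation) factors as covariates, and the call against probe alone was lost when only the 8 libraries of these 2 arms were fitted. Of all genes, DESeq2 called 260 and the RUV fit 1733 against light alone, where the main fit called 29. The fit of only the 2 arms called 3 of all genes against probe alone, where the main fit called 154.

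Among the controls at 3 h, NFYA with light alone stood at -0.10 against DMSO (SE 0.049) and -0.12 against probe alone (SE 0.049), and probe alone stood at 0.017 against DMSO (SE 0.049). None of these was called. NCBP1 transcripts also differed between the arms at 3 h, with 75860 ± 15200 CPM under T-REX and 61370 ± 6530 (light alone), 64590 ± 4240 (probe alone) and 53850 ± 6160 (DMSO) in the controls. At 6 h it stood at 72830 ± 5960 (T-REX), 53740 ± 5900 (DMSO), 82940 ± 12000 (probe alone) and 41700 ± 8910 (light alone), and at 12 h at 57500 ± 5340, 34640 ± 4550, 59150 ± 10000 and 40520 ± 6850 in the same order, times at which NFYA was not called. The part of the plasmid's level in the NFYA values was not tested. In bulk RNA, fewer cells of one kind and less RNA per cell cannot be told apart.

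**Figure D1:**
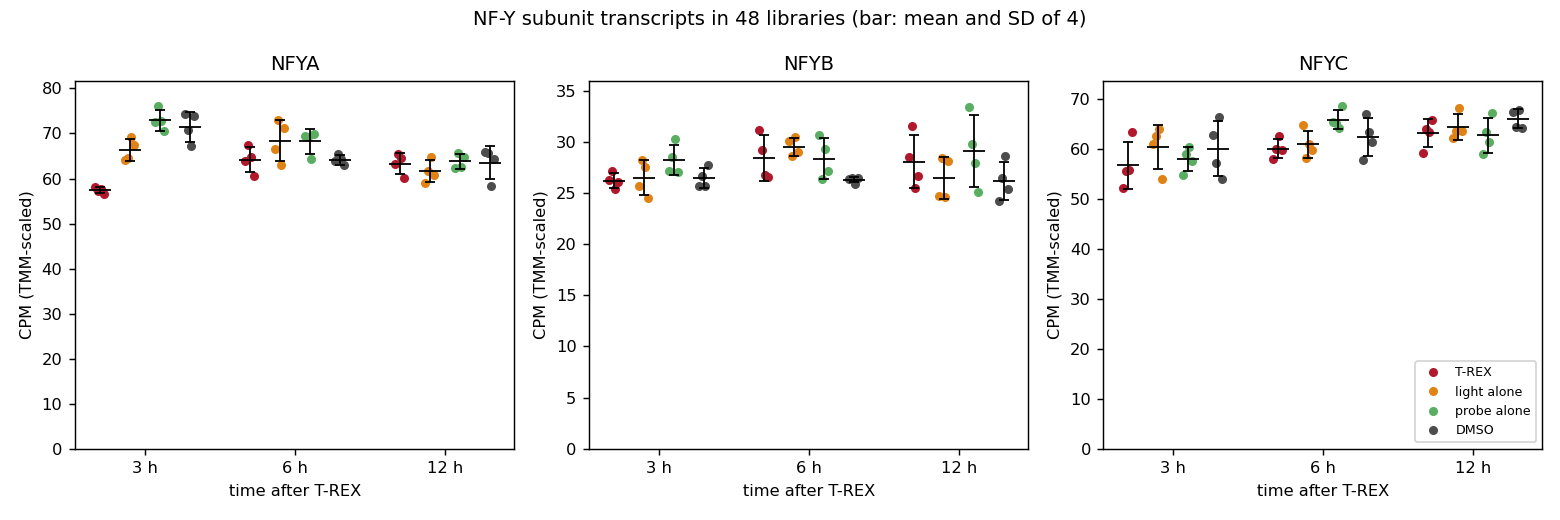
NFYA, NFYB and NFYC in CPM (vertical axes, from 0) in each of the 48 libraries, by time after T-REX and arm, with a bar for the mean and SD of 4 libraries. The 4 NFYA values under T-REX at 3 h, 56.5 to 58.1 CPM, lie below all 12 control values, while the groups of NFYB and NFYC overlap at 3 h.

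At 6 h the arms were no longer separated. NFYA held 63.8, 67.4, 64.7 and 60.6 CPM under T-REX, 66.5, 72.9, 63.0 and 71.3 with light alone, 69.5, 69.3, 64.2 and 69.9 with probe alone, and 63.8, 65.5, 64.3 and 62.9 with DMSO. All 4 DMSO libraries lay inside the range of the T-REX libraries. The log2 fold changes were -0.096 for light alone, -0.090 for probe alone and -0.0013 for DMSO (SE 0.057 each), and 0 of the 3 subunits were called, beside 0.218%, 0.109% and 0.415% of all genes.

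At 12 h NFYA held 63.2, 65.4, 64.6 and 60.1 CPM under T-REX, and the means of the 4 arms were 63.3 ± 2.34 (T-REX), 61.6 ± 2.45 (light alone), 63.8 ± 1.68 (probe alone) and 63.6 ± 3.56 CPM (DMSO). The groups overlapped in every pairing with T-REX. The log2 fold changes were 0.042, -0.015 and -0.0069 against light alone, then probe alone, then DMSO (SE 0.055 each). Again 0 of the 3 subunits were called, beside 1.29%, 0.701% and 10.9% of all genes.

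Read along time within each arm, in a fit of all 48 libraries, NFYA was higher at 12 h than at 3 h under T-REX and lower in each control. NFYA under T-REX was 0.16 higher at 6 h and 0.14 higher at 12 h than at 3 h on the log2 scale (SE 0.049 each). In DMSO the corresponding differences were -0.16 and -0.17 (SE 0.049), with probe alone -0.097 and -0.19 (SE 0.048 and 0.049), and with light alone 0.044 and -0.11 (SE 0.049). The T-REX effect, taken against the mean of the 3 controls, was 0.23 higher at 6 h than at 3 h (SE 0.056) and 0.30 higher at 12 h than at 3 h (SE 0.056). In the latter contrast NFYA was the 1 subunit called, beside 0.116% of all genes, and its call failed without T-REX 12 h replicate 2, 1 of 32 fits that omitted 1 library each, in which the value ran from 0.28 to 0.32. The 3 h libraries that entered this contrast are among those that chose the gene.

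**Figure D2:**
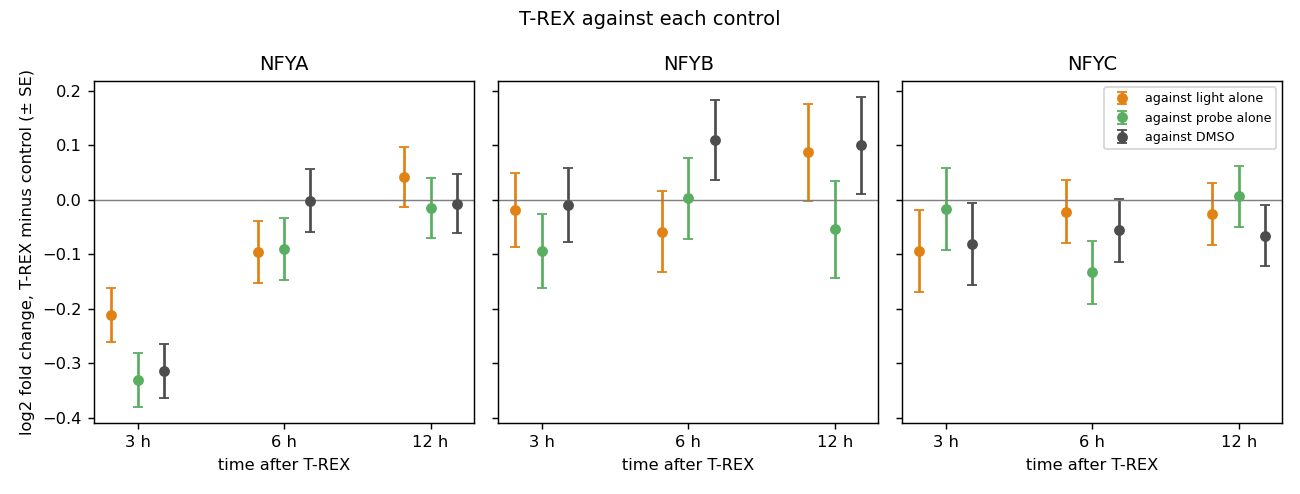
Log2 fold change of NFYA, NFYB and NFYC, T-REX minus each control (vertical axis, points with bars of 1 SE), at 3, 6 and 12 h, from fits of the 16 libraries of each time. The 3 NFYA points at 3 h lie between -0.33 and -0.21, and at 12 h between -0.015 and 0.042.

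NFYB, a histone-fold subunit, showed smaller differences at 3 h. T-REX libraries held 26.2, 27.1, 25.3 and 26.0 CPM, light alone 25.7, 28.2, 27.5 and 24.5, probe alone 27.1, 28.5, 30.3 and 27.1, and DMSO 25.7, 26.7, 25.7 and 27.7. The T-REX libraries overlapped light alone and DMSO widely and probe alone by 1 library, since 3 of the 4 probe-alone libraries lay above the highest T-REX library. The log2 fold changes at 3 h were -0.019 for light alone, -0.094 for probe alone and -0.0094 for DMSO (SE 0.068 each).

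At 6 h NFYB held 31.2, 29.2, 26.7 and 26.6 CPM under T-REX and 26.4, 26.4, 25.9 and 26.5 CPM with DMSO. The 4 DMSO libraries were all lower than the lowest T-REX library, by a margin that was small beside the spread within T-REX (SD 2.203 CPM), and the log2 fold change was 0.11 (SE 0.074). Against light alone and probe alone the values were -0.058 and 0.0027 (SE 0.074 each). At 12 h they were 0.087, -0.054 and 0.10 against light alone, then probe alone, then DMSO (SE 0.089, 0.089 and 0.090), and the groups overlapped.

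NFYC, the partner of NFYB, held 52.1, 55.5, 55.8 and 63.3 CPM under T-REX at 3 h, against 61.01, 62.5, 63.9 and 54.0 with light alone, 54.8, 59.0, 60.3 and 57.6 with probe alone, and 62.7, 57.2, 66.3 and 54.0 with DMSO. T-REX replicate 4 lay above all 4 probe-alone libraries and within the ranges of light alone and DMSO, and the other 3 T-REX libraries were lower. The log2 fold changes were -0.093, -0.016 and -0.081 (SE 0.075 each). At 6 h all 4 probe-alone libraries (65.4, 65.1, 64.1 and 68.6 CPM) were above the 4 T-REX libraries (57.9, 59.9, 62.5 and 59.7 CPM), with a log2 fold change of -0.13 (SE 0.058) that was not called. The values against light alone and DMSO at 6 h were -0.022 and -0.056 (SE 0.058 each), and those at 12 h were -0.026, 0.0064 and -0.065 against light alone, then probe alone, then DMSO (SE 0.056 each).

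NFYC was higher at 12 h than at 3 h in every arm, by log2 differences of 0.16 (T-REX), 0.14 (DMSO), 0.11 (probe alone) and 0.092 (light alone), with SE of 0.059 to 0.060. The change in the T-REX effect between 3 and 12 h was 0.042 for NFYC (SE 0.069) and 0.092 for NFYB (SE 0.085). The 3 subunits thus did not share a profile over the 48 libraries. Pearson's r of log2 CPM was 0.14 between NFYA and NFYB, -0.058 between NFYA and NFYC and -0.080 between NFYB and NFYC, values that describe libraries which share arms and times.

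The genes whose log2 CPM followed each subunit most closely over the 48 libraries were taken from 10103 others with a mean log2 CPM above 3. For NFYA they were RPL7A (a ribosomal protein, r = 0.66), ALDH18A1 (proline synthesis, r = 0.66) and TUBA1B (an alpha tubulin, r = 0.65). For NFYB they were RAB28 (a small GTPase, r = 0.60), CSNK1G3 (a casein kinase, r = 0.57) and SGMS2 (sphingomyelin synthesis, r = 0.55). For NFYC they were ZFP36L1 (an mRNA decay factor, r = 0.81), ECH1 (fatty acid oxidation, r = 0.80) and ALG12 (N-glycan assembly, r = 0.75). After centring each gene within arm and time, 0 of the 3 genes remained for NFYA and 0 of 3 for NFYB, where HADHA (r = 0.65) and SMC4 (r = 0.66) were among the closest, and 2 of 3, ZFP36L1 and ALG12, remained for NFYC.

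In the RefSeq table of GRCh38.p14, NFYA overlaps OARD1, which encodes an ADP-ribose hydrolase, and ADCY10P1, a transcribed pseudogene. The log2 fold changes of OARD1 at 3 h were 0.17, 0.24 and 0.26 against light alone, then probe alone, then DMSO, with SE 0.081 each (adjusted p = 0.345, 0.12 and 0.0626 from edgeR's quasi-likelihood test), values of opposite sign to those of NFYA. NFYC overlaps the antisense transcript NFYC-AS1 (log2 fold changes at 3 h of -0.082, 0.023 and 0.15, SE 0.095 to 0.096) and RIMS3. The library kit marks strand, but how the counting used strand is not given in the sources used here, so that reads of overlapping genes may not be separated. HCFC2 neighbours NFYB, and none of OARD1, ADCY10P1, NFYC-AS1, RIMS3 and HCFC2 was called in any of the 9 comparisons with T-REX. The pseudogenes NFYAP1, NFYBP1, NFYCP1 and NFYCP2 were not among the genes of the tables.

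To see how genes commonly named as NF-Y targets stood in the same libraries, 41 genes taken from general knowledge were followed in 4 lists (13 of the cell cycle, 7 of S phase, 11 of the ER stress response and 10 of sterol and lipid synthesis), all 41 of them in the tables. Binding of NF-Y to these genes was not measured here. The lists were drawn up with earlier results of these data known, so the shares below are a description and not independent evidence. Of the 34 genes with a promoter window, 31 held CCAAT on either strand. At 3 h, 0 were called lower and 2 higher against light alone (4.88% of 41, beside 0.197% of all genes), 3 lower and 3 higher against probe alone (14.6%, beside 1.05%), and 5 lower and 4 higher against DMSO (22.0%, beside 5.99%). The targets thus moved in both directions, and the lower ones belonged to the cell cycle and S phase lists and the higher ones to the ER stress list. The median log2 fold change of the 41 was 0.067, -0.076 and 0.064 in the same order.

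These counts depended on single libraries. Against light alone the count of 2 became 1 without light alone replicate 2 or 3, where 10 and 9 of all genes were called, beside 29 with all libraries. Against probe alone the count of 6 was 2 without probe alone replicate 1, 3 without T-REX replicate 2 or 4 or probe alone replicate 2 or 3, and 12 without T-REX replicate 3 or probe alone replicate 4. Of all genes, 154 were called against probe alone with all libraries. That number was 18 without probe alone replicate 1, 535 without T-REX replicate 3 and 348 without probe alone replicate 4. Against DMSO the count of 9 targets was 5 without DMSO replicate 2, where 318 of all genes were called, beside 880 with all libraries. At 6 h 1, 0 and 1 targets were called against light alone, then probe alone, then DMSO (2.44%, 0% and 2.44% of 41, beside 0.218%, 0.109% and 0.415% of all genes; of the 41, 8 had an unadjusted p below 0.05 against probe alone and DESeq2 called 1), and at 12 h 3, 1 and 6 (7.32%, 2.44% and 14.6%, beside 1.29%, 0.701% and 10.9%). Of these, the 6 h count against light alone was 3 without light alone replicate 4 and 0 without any other library, and that against DMSO was 2 without T-REX replicate 4. The 12 h count against probe alone was 5 without probe alone replicate 4, 1 without T-REX replicate 4 and 0 without any other library, and that against DMSO was 3 without T-REX replicate 1 and 11 without DMSO replicate 4. Of all genes, the 6 h fits called 190 (light alone, without light alone replicate 4) and 43 (DMSO, without T-REX replicate 4). The 12 h fits called 209 (probe alone, without probe alone replicate 4), and against DMSO 795 without T-REX replicate 1 and 2655 without DMSO replicate 4.

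The promoters of the target genes called at 1 time and in 1 direction by comparison with 2 or more controls, ASNS apart, are shown for the position of their CCAAT boxes. Each is the 120 bases before the first listed start, 5′ to 3′ on the gene's strand, with CCAAT or ATTGG in capitals.
CCNA2, chr4:121823884-121824003, minus strand: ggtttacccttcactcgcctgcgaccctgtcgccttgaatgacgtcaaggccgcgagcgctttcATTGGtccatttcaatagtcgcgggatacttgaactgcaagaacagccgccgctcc
CCNB1, chr5:69167030-69167149, plus strand: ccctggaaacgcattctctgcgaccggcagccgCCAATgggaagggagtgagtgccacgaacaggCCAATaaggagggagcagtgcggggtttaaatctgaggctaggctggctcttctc
TOP2A, chr17:40417897-40418016, minus strand: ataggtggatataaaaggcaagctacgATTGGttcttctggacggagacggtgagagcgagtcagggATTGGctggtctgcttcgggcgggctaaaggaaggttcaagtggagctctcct
XBP1, chr22:28800570-28800689, minus strand: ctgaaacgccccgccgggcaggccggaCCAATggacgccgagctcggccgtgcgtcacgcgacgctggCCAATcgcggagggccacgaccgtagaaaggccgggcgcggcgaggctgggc
HSPA5, chr9:125241344-125241463, minus strand: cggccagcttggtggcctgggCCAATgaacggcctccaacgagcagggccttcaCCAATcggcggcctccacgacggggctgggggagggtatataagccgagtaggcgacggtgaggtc
HERPUD1, chr16:56932022-56932141, plus strand: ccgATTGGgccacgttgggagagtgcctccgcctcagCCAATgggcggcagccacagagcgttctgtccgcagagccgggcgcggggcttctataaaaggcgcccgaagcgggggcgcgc
CCNA2 held 1 box, beginning 56 bases before the start, and CCNB1 held 2, beginning 87 and 55 bases before it. TOP2A held boxes 93 and 53 bases before the start within this stretch, all read as ATTGG. The ER stress element was searched on both strands in 1 form only, a CCAAT followed after 9 bases by CCACG (each match is also a CCAAT match). This form was in a window of XBP1 and of HSPA5 but not in that of HERPUD1. Other spacings were not searched, and in the HERPUD1 stretch above an ATTGG is followed after 1 base by ccacg. The form with 9 bases was in 0.0769% of all windows, in 15 of the 10443 tested genes with a window, and in 5 of the 11 ER stress genes (HSPA5, HSP90B1, CALR, PDIA6 and XBP1). The 2 ASNS windows held no CCAAT on either strand.

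Of the cell cycle targets, CCNA2 (cyclin A2), CCNB1 (cyclin B1) and TOP2A (topoisomerase II alpha) were lower at 3 h against probe alone and DMSO, and CDK1, the kinase that cyclin B1 activates, was lower against DMSO. CCNA2 held 200.1, 205.1, 185.7 and 189.9 CPM under T-REX, 222.2, 217.3, 212.9 and 209.7 with light alone, 236.7, 265.4, 227.6 and 211.5 with probe alone, and 238.8, 242.1, 212.6 and 239.0 with DMSO. The T-REX libraries were the 4 lowest of the 16, although light alone lay near them. The log2 fold change of CCNA2 was -0.25 against probe alone (SE 0.058, adjusted p = 0.0398) and -0.25 against DMSO (SE 0.058, adjusted p = 0.0138), and -0.14 against light alone (adjusted p = 0.237), by edgeR's quasi-likelihood test.

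CCNB1 had log2 fold changes of -0.23 against probe alone (adjusted p = 0.0433, edgeR) and -0.22 against DMSO (adjusted p = 0.021, edgeR), and TOP2A -0.24 against both (adjusted p = 0.0467 and 0.016, edgeR). Under T-REX, CCNB1 held 151.2 to 179.1 CPM, below every control library, and TOP2A 512.9 to 608.9 CPM, overlapping light alone (583.3 to 647.0). The remaining cell cycle genes gave no call in these comparisons, and the list's median was -0.047, -0.079 and -0.031 against light alone, then probe alone, then DMSO. Against light alone 0 of the 13 were called by edgeR (3 at an unadjusted p below 0.05, and 0 by DESeq2).

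The calls of CCNA2, CCNB1 and TOP2A against probe alone were lost in the same 5 of 8 fits that omitted 1 library each (T-REX replicate 2 or 4, probe alone replicate 1, 2 or 3), with adjusted p up to 0.158, 0.164 and 0.165 from edgeR's test. Against DMSO, that of CCNA2 failed without DMSO replicate 1 or 2 (adjusted p up to 0.0546, edgeR), and those of CCNB1 and TOP2A without T-REX replicate 4 or DMSO replicate 2 or 4 (up to 0.0927 and 0.0699, edgeR).

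Later, at 6 h, 0 of the 13 cell cycle genes were called by edgeR against any control (1, 0 and 0 at an unadjusted p below 0.05 against light alone, then probe alone, then DMSO, and 0 by DESeq2), and at 12 h CCNA2 alone was called, against DMSO (log2 fold change -0.21, SE 0.055, adjusted p = 0.0173, edgeR), a call lost without T-REX replicate 1 or 3. Of the 7 S phase genes, RRM1, a subunit of ribonucleotide reductase, was the 1 called, at 3 h against DMSO (log2 fold change -0.17, SE 0.049, adjusted p = 0.0397, edgeR), a call lost in 6 of 8 fits that omitted 1 library (T-REX replicate 2, 3 or 4, DMSO replicate 1, 2 or 4; adjusted p up to 0.115).

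Of the 11 ER stress targets, 2, 3 and 4 were called higher at 3 h against light alone, then probe alone, then DMSO. These are 18.2%, 27.3% and 36.4%, beside 0.197%, 1.05% and 5.99% of all genes. XBP1, a transcription factor of the unfolded protein response, held 106.6, 105.0, 108.3 and 100.1 CPM under T-REX at 3 h, above all 12 control libraries (74.9 to 90.7 CPM). It was higher in each comparison at 3 h, with log2 fold changes of 0.41, 0.30 and 0.34 against light alone, then probe alone, then DMSO (SE 0.053 each, adjusted p = 0.000661, 0.0106 and 0.00132, edgeR). ASNS, asparagine synthetase, held 12.9, 11.46, 12.5 and 14.0 CPM under T-REX against 6.28 to 9.12 CPM in the controls, and its log2 fold changes were 0.73, 0.74 and 0.82 (SE 0.13 each, adjusted p = 0.0105, 0.00817 and 0.00132, edgeR).

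HERPUD1, which acts in ER-associated degradation, was higher at 3 h against probe alone (0.41, SE 0.072, adjusted p = 0.00817, edgeR) and DMSO (0.50, SE 0.072, adjusted p = 0.00104, edgeR), while with light alone (37.2 to 46.5 CPM) it overlapped T-REX (42.1 to 48.1 CPM). HSPA5, the ER chaperone BiP, was higher at 3 h against DMSO (0.34, SE 0.074, adjusted p = 0.012, edgeR). The remaining 7 ER stress genes were not called at 3 h. Against probe alone, log2 fold changes below 0 were found for HSP90B1 (-0.076), CALR (-0.13), PDIA4 (-0.13) and PDIA6 (-0.21), which encode chaperones and disulphide isomerases of the ER, and PDIA6 stood at -0.10 against DMSO. The list's median was 0.22, 0.20 and 0.21 against light alone, then probe alone, then DMSO. The calls of ASNS were lost without light alone replicate 2 or 3 against light alone (adjusted p up to 0.0614, edgeR) and without probe alone replicate 1 against probe alone (0.0544, edgeR).

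**Figure D3:**
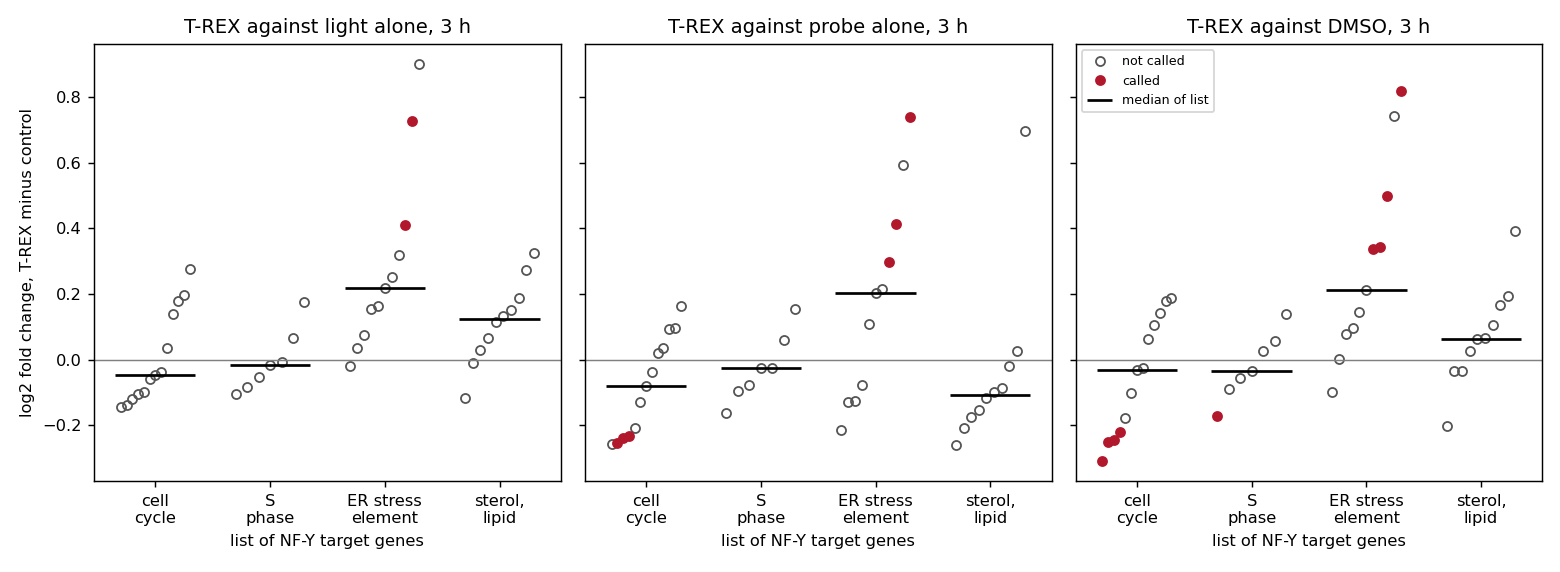
Log2 fold change at 3 h, T-REX minus each control (vertical axis), of the 41 NF-Y target genes in 4 lists, each circle 1 gene, filled where called, with a line at the list's median. Filled circles of the cell cycle list lie between -0.31 and -0.22, and those of the ER stress list between 0.30 and 0.82.

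XBP1 was also called higher in 5 of 6 comparisons at the later times. At 6 h its log2 fold changes were 0.31 against light alone and 0.37 against DMSO (adjusted p = 0.0272 and 0.00667, edgeR), with 0.29 against probe alone (adjusted p = 0.0846, edgeR), and at 12 h they were 0.43, 0.25 and 0.41 (adjusted p = 0.000179, 0.0409 and 9.83e-05, edgeR). The call against light alone at 6 h was lost in 7 of 8 fits that omitted 1 library each (adjusted p up to 0.125, edgeR; kept without light alone replicate 4), as was that against probe alone at 12 h (up to 0.186, edgeR; kept without probe alone replicate 4). HSPA5 at 12 h was higher against light alone (0.21, adjusted p = 0.0372, edgeR), a call lost in each of 8 such fits, and against DMSO (0.18, adjusted p = 0.0201, edgeR), lost without T-REX replicate 1 or 2 or DMSO replicate 2. PDIA6, a protein disulphide isomerase, was lower against DMSO at 12 h (-0.22, SE 0.052, adjusted p = 0.00925, edgeR).

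**Figure D4:**
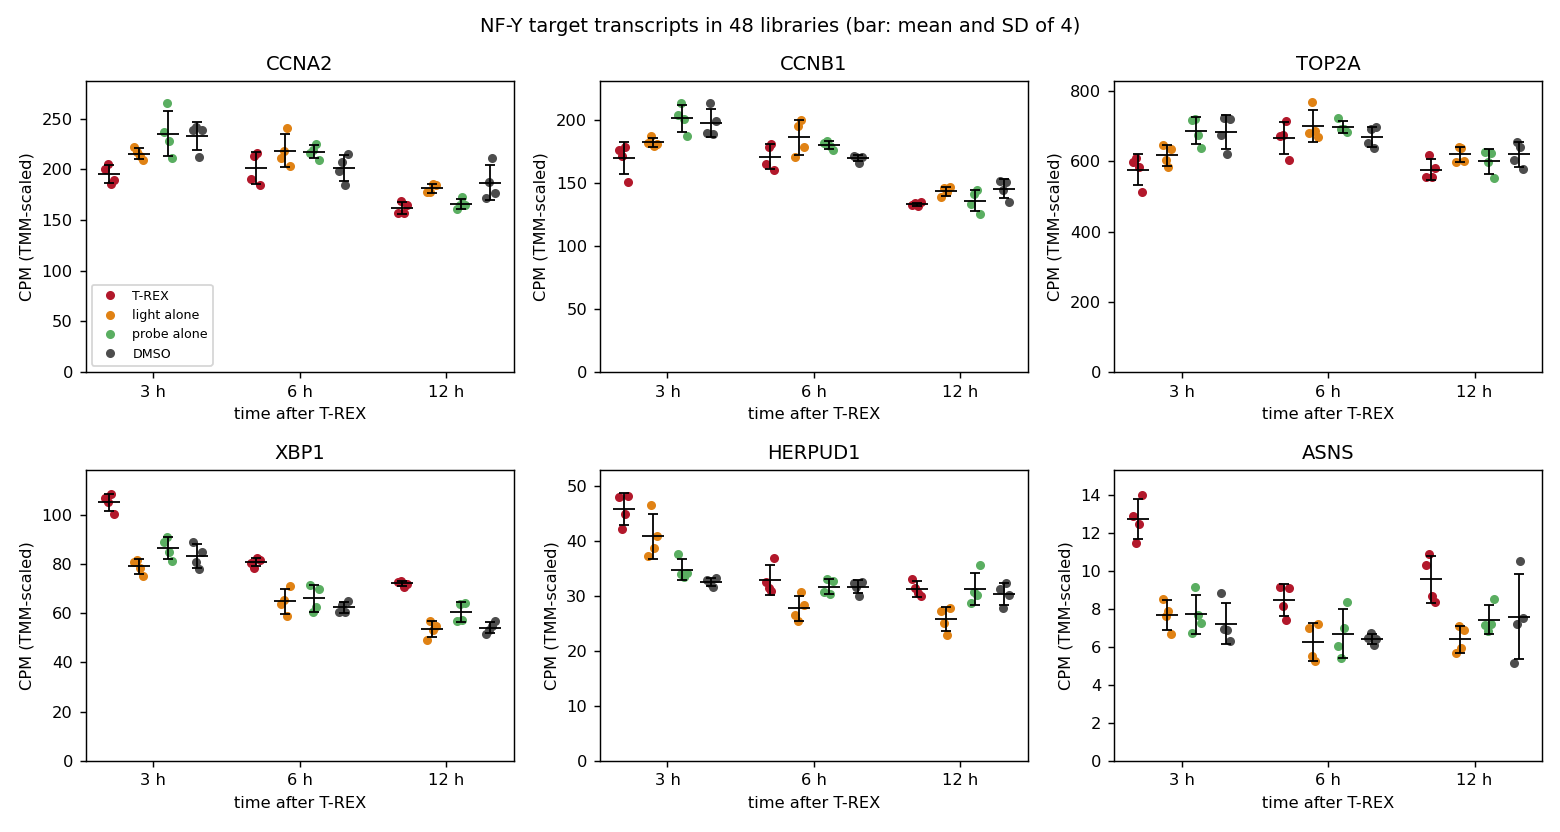
CPM (vertical axes, from 0) of CCNA2, CCNB1, TOP2A, XBP1, HERPUD1 and ASNS in each library by time and arm, with the mean and SD of 4. XBP1 under T-REX falls from a mean of 105.0 CPM at 3 h to 72.0 CPM at 12 h and stays above the control means, which fall alongside.

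Sterol and lipid targets gave no call at 3 or 6 h by edgeR (0 of 10 in each comparison; at 3 h 5, 4 and 3 had an unadjusted p below 0.05 against light alone, then probe alone, then DMSO, and DESeq2 called 2, 3 and 0; at 6 h the counts were 3, 2 and 4 unadjusted and 0, 0 and 1 by DESeq2). At 12 h SREBF2, the factor that drives cholesterol synthesis (0.25, SE 0.078, adjusted p = 0.04, edgeR), was higher against DMSO, and HMGCS1, an enzyme of the same pathway, against light alone (0.32, SE 0.063, adjusted p = 0.00486, edgeR). The call of SREBF2 was lost in 6 of 8 fits that omitted 1 library (any T-REX replicate, DMSO replicate 2 or 3; adjusted p up to 0.114, edgeR) and with the replicate number as a block (adjusted p = 0.0577, edgeR). The median of the list at 12 h was 0.070, -0.17 and -0.057 against light alone, then probe alone, then DMSO. In the same order, 4, 10 and 7 of the 10 genes lay below 0. At an unadjusted p below 0.05 there were 3, 6 and 4, and DESeq2 called 1, 5 and 2. Of all genes, DESeq2 called 409, 257 and 2069.

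No target gene passed the test of a change in the T-REX effect between 3 and 12 h (0 of 41 by edgeR, and 6 at an unadjusted p below 0.05) or between 3 and 6 h (0 of 41, and 11 unadjusted). Among all 84 listed genes (0 called, and 12 unadjusted at each time) the smallest adjusted p between 3 and 12 h was that of SP1 (log2 difference 0.15, SE 0.046, adjusted p = 0.163, edgeR). For CCNA2, CCNB1 and TOP2A, a difference between the times was not shown.

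Calls among factors that share promoters or folds with NF-Y are given with their shares. Against DMSO, 5.99% (3 h) and 10.9% (12 h) of all genes were called. The lists are small, and nothing is read from their shares. Of 14 partners, including ATF6, SREBF1, the RFX complex, USF1 and the MuvB subunits LIN9 and LIN54, SP1 was the 1 called, lower at 3 h against DMSO (-0.16, SE 0.046, adjusted p = 0.0428, edgeR), a share of 7.14%, and a call that failed on omitting T-REX replicate 3 or 4 or DMSO replicate 1, 2 or 4. Of 15 histone-fold relatives, 14 were in the tables (CENPS was not), and of these CHRAC1, a subunit of a chromatin accessibility complex, was lower against DMSO at 3 h (-0.26, adjusted p = 0.0249, edgeR) and 12 h (-0.28, adjusted p = 0.0218, edgeR), and TAF12, a TFIID subunit, at 12 h (-0.24, adjusted p = 0.0119, edgeR). The calls of CHRAC1 were lost without T-REX replicate 3, DMSO replicate 1 or 2 at 3 h and without T-REX replicate 1 or 3 or DMSO replicate 3 at 12 h, and that of TAF12 without T-REX replicate 1. The shares of these relatives called against DMSO were 7.14% at 3 h and 14.3% at 12 h. Of 10 other factors named for CCAAT, 9 were in the tables (CEBPD was not), and of these CEBPG, a C/EBP family member, was higher at 12 h against all 3 controls (0.30, 0.26 and 0.27 against light alone, then probe alone, then DMSO, adjusted p = 0.0033, 0.0197 and 0.00296, edgeR), a call lost against probe alone in 5 of 8 such fits (T-REX replicate 1 or 2, probe alone replicate 1, 2 or 3; adjusted p up to 0.131, edgeR). CEBPZ, a ribosome assembly factor once named for CCAAT binding, was lower at 12 h against DMSO (-0.18, adjusted p = 0.033, edgeR), a call lost without T-REX replicate 1, 3 or 4 or DMSO replicate 2 or 3. The shares of these 9 called at 12 h were 11.1%, 11.1% and 22.2% against light alone, then probe alone, then DMSO. Of all genes, 1.29%, 0.701% and 10.9% were called there.

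Beyond the lists, all tested genes with a promoter window were compared by whether any window held CCAAT on either strand. The 4584 genes with it and the 5859 without it had nearly the same distribution of log2 fold changes at 3 h, with medians of -0.0014 and -0.0084 against light alone, 0.0083 and 0.0067 against probe alone, and 0.024 and 0.019 against DMSO. The share called was 0.349% with and 0.154% without CCAAT against light alone, 1.51% and 1.02% against probe alone, and 7.05% and 6.23% against DMSO. At 6 h the shares were 0.305% and 0.119%, 0.153% and 0.0683%, and 0.567% and 0.341%, and at 12 h 1.55% and 1.19%, 0.938% and 0.683%, and 12.4% and 11.0%, in the same order of controls. The share was higher with CCAAT in all 9 comparisons, which share their T-REX libraries at each time and were not tested. The genes with CCAAT were also slightly more abundant (median of mean log2 CPM 4.90 against 4.79), and the part of abundance in these shares was not tested.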

How the data were processed

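RNA of HEK293T cells was sequenced from 48 libraries, 4 for each of 4 arms at 3, 6 and 12 h. Per the study's methods, stranded libraries were depleted of ribosomal RNA, and reads were demultiplexed with bcl2fastq, the tool that the submitters' processing notes name. The study's reporting summary names the tools cutadapt, tophat and cufflinks, and which of them made these counts, the counter and the genome build are not given in the sources used here. The authors deposited raw read counts per Ensembl gene (14685 genes, lowest count 2) and, per sample, 2 RUV factors as a score, which served as covariates in 1 alternative. The deposited normalised tables were not used.

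Counts of the 16 libraries of each time were fitted with edgeR 4.0.16 (R 4.3.3; TMM factors, filterByExpr, which removed no gene, and the quasi-likelihood test), and all 48 together for changes with time. DESeq2 1.42.0 was an alternative. Members and gene lists were chosen with earlier results of these data known. Within the lists, at most 4 genes each were named by a rule (called in 1 direction against at least 2 controls at 1 time, ordered by adjusted p), as were the 3 genes most like each subunit and neighbouring genes. Genes named outside it (CDK1, RRM1, PDIA6, SREBF2, HMGCS1, SP1, CHRAC1, TAF12, CEBPZ, INA, NEFL, HADHA and SMC4) were chosen after their values were seen. Some genes are not reported here. Symbols came from a table of Ensembl identifiers, and 10443 tested genes matched a promoter window. The fit was tested on simulated data. The paper describes independent biological quadruplicates for each set and does not detail how the cultures were kept apart, so p-values measure the spread between these samples. Total counts of 23952455 to 37099535 per library set the precision, and standard errors include this counting error.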

Additional observations from a re-analysis of the deposited data

Results flagged for a closer look

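NFYA in probe alone at 6 h had 1 library apart from the other 3, replicate 3 at 64.23 CPM against 69.3 to 69.9 CPM, and 1 of the 36 groups tested was flagged in this way, where chance flags about 1 in 20 groups.

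The T-REX effect on NFYA differed between 12 h and 3 h by 0.299 on the log2 scale and passed edgeR's test over all genes, as did 0.116% of all genes. The 3 h values are among those that chose the gene, so this is a description and not independent evidence. None of the 84 genes of the lists passed this test (0 by edgeR, and 12 at an unadjusted p below 0.05).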

How the results depend on the processing

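The log2 fold changes of NFYA, NFYB and NFYC moved by less than the spread between replicates in all 378 alternative values. NFYA at 3 h kept its sign under all 14 alternatives of each comparison and ran from -0.231 to -0.195 against light alone, -0.347 to -0.311 against probe alone and -0.338 to -0.293 against DMSO. At 3 h the number of subunits called against light alone was 1 with DESeq2 and 1 with 2 RUV factors, and against probe alone 0 with only the 2 arms fitted. Of all genes, those fits called 260, 1733 and 3, where the main fits called 29 against light alone and 154 against probe alone. The number of NF-Y target genes called at 3 h, in the order light alone, probe alone and DMSO, ran from 1 to 3, 2 to 12 and 5 to 11 without 1 library, and was 16, 18 and 19 with RUV factors. With DESeq2 it was 4 and 13 against light alone and probe alone, and with only the 2 arms 1 and 0. Of all genes at 3 h, 9 to 119, 18 to 535 and 295 to 1137 were called without 1 library, and 1733, 2551 and 3061 with RUV factors. DESeq2 called 260 and 623 of all genes against light alone and probe alone, and the fits of only the 2 arms 3 and 3. At 6 h the number of target genes ran from 0 to 3 against light alone and from 1 to 2 against DMSO without 1 library, was 12, 3 and 9 with RUV factors, 1 and 4 with DESeq2 against probe alone and DMSO, and 0, 2 and 4 with only the 2 arms. In the same order, 14 to 190 and 11 to 138 of all genes were called without 1 library, and 1202, 257 and 1048 with RUV factors. DESeq2 called 57 and 288 of all genes, and the fits of only the 2 arms 9, 88 and 128. At 12 h the number of target genes ran from 2 to 2, 0 to 5 and 3 to 11 without 1 library, was 11, 14 and 20 with RUV factors, 5 and 7 with DESeq2 against light alone and probe alone, and 11, 7 and 1 with only the 2 arms. In the same order, 94 to 150, 29 to 209 and 795 to 2655 of all genes were called without 1 library. RUV factors gave 1266, 901 and 3925 of all genes, DESeq2 409 and 257, and only the 2 arms 1127, 389 and 366. Fitting only the 2 arms also ended the calls of ASNS against light alone and probe alone, of CCNA2, HERPUD1 and XBP1 against probe alone, of CCNB1 and TOP2A against probe alone and DMSO, and of RRM1, SP1 and CHRAC1 against DMSO at 3 h, of XBP1 against light alone at 6 h, and of CCNA2, HSPA5, PDIA6, SREBF2, CHRAC1, TAF12 and CEBPZ against DMSO at 12 h. The cause of these differences was not tested.

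With the replicate number as a replicate block, the number of target genes called against probe alone at 12 h was 3, where it was 1 without the block, and the other 8 counts of target genes were within 1.5 times. Of all genes, 90 were called against probe alone at 12 h with the block and 103 without it. The replicate numbers paired the samples in 1 of 18 pairs of arms (every correlation of same-numbered deviations above 0.1), T-REX and probe alone at 6 h, where 0 target genes were called with the block and without it. Of the calls of named genes, that of SREBF2 against DMSO at 12 h was lost with the replicate block (adjusted p = 0.0577, edgeR). The change in the T-REX effect on NFYA, with alternatives chosen after seeing the data, was 0.298 with RLE factors, 0.298 with the replicate block and 0.283 to 0.323 without 1 library.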
